A study of Mus musculus with 23 samples.

Results

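The 8 genes described here encode the enzymes that attach isoprenoid lipids to proteins and those that process the lipid-modified end of the protein: *Fnta*, *Fntb*, *Pggt1b*, *Rabggta*, *Rabggtb*, *Rce1*, *Zmpste24* and *Icmt*. They were chosen by symbol, and all 8 were found among the 27179 genes of the count table. RNA was sequenced from liver tissue without visible tumors of 15 female mice. All mice carried Alb-Cre, which recombines floxed alleles in hepatocytes and leaves them intact in most other cells of the liver, and floxed *Trp53* on both alleles. The 6 Ctrl mice had wild-type *Braf* and *Icmt* flx/+. The 6 ABpIF/+ mice carried *Braf* CA/+, a Cre-activated *Braf* V600E allele, with *Icmt* flx/+, and the 3 ABpIF/F mice carried *Braf* CA/+ with *Icmt* flx/flx. The genotype labels of the ABpIF/+ and ABpIF/F mice read BRAF +/+, while the series' design text gives *Braf* CA/+, which is used here. By the strain labels, 5 of the 6 Ctrl mice came from a cross of B6 lines with ICMT tm1Mbrg, Trp53tm1Brn and Albcre. The sixth Ctrl mouse, BG3, and all 9 ABpIF/+ and ABpIF/F mice came from this cross bred on to a B6 line with Braftm1Mmcm. Ctrl and ABpIF/+ mice thus shared 1 floxed *Icmt* allele, and no group with *Icmt* +/+ was analysed here. The labels do not give the age of each mouse, and the study describes the ABpIF/F animals as differing in age.

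Prenylation attaches a farnesyl or geranylgeranyl lipid to a cysteine near the C-terminus, and it anchors small GTPases and lamins to membranes. Farnesyltransferase (FTase) pairs the α subunit encoded by *Fnta* with the β subunit encoded by *Fntb*, and geranylgeranyl transferase I (GGTase I) pairs the same α subunit with the product of *Pggt1b*. Both act on proteins that end in a CAAX sequence. RAB geranylgeranyl transferase (GGTase II) consists of the products of *Rabggta* and *Rabggtb* and acts on RAB proteins. After a CAAX protein has been prenylated, the protease RCE1 removes the AAX residues and ICMT methylates the exposed prenylcysteine. ZMPSTE24 is the protease that matures prelamin A and can also remove AAX residues.

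Total counts per mouse were between 24742910 and 32262649. Levels are given as CPM, which are counts relative to the TMM-scaled library size, and as CPM per kb of exon where genes are compared with each other. Differences are log2 fold changes ± SE from edgeR's quasi-likelihood fit over all 15 mice, and a gene was called at a Benjamini-Hochberg adjusted p under 0.05. All 8 hepatocyte markers were detected, and their summed level was 95317 to 128342 CPM in Ctrl, 174205 to 242003 in ABpIF/+ and 122062 to 214242 in ABpIF/F mice. Most of this sum was *Alb*, with means of 89159, 153783 and 144110 CPM. Of the 8, 5 rose and 2 (*Ttr* and *Cps1*) fell in ABpIF/+ as compared to Ctrl, and 3 rose and 3 (*Tat*, *Cps1* and *Ass1*) fell in ABpIF/F as compared to Ctrl. The livers also differed in markers of other cells. The 7 stellate cell and fibroblast markers summed to 212 to 278 CPM in Ctrl, 58.2 to 125 in ABpIF/+ and 237 to 381 in ABpIF/F mice. The 6 cholangiocyte markers summed to 35.8 to 68.4, 29.9 to 145 and 205 to 1150 CPM in the same order. The 7 macrophage markers summed to 310 to 433, 129 to 225 and 260 to 582 CPM, and the 5 neutrophil markers to 2.4 to 4.14, 2.18 to 6.89 and 4.6 to 79.7 CPM. All 7 stellate cell and fibroblast markers fell in ABpIF/+ as compared to Ctrl and rose in ABpIF/F as compared to ABpIF/+, where all 6 cholangiocyte, 4 of 5 neutrophil, 6 of 7 macrophage, 5 of 8 T and B lymphocyte and 3 of 6 endothelial markers also rose. Of these markers *Ly6g* was at 0 in every Ctrl mouse, and their part in the results below was not tested. In bulk tissue, fewer cells that express a gene cannot be told apart from less RNA of that gene per cell.

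For 5 of the 8 genes, the Ctrl mice BG3 and malpa387 did not overlap with the other 4 Ctrl mice, and they lay on the ABpIF/+ side. These genes were *Fnta*, *Pggt1b*, *Rabggtb*, *Rce1* and *Zmpste24*. The share of all genes with this pattern was not computed, so it cannot be called particular to these genes. The clock gene score of malpa387 was -0.44, while it was 4.48 to 5.48 in the other 5 Ctrl mice and 3.89 to 4.96 in ABpIF/+ mice. This score is the mean log2 CPM of *Dbp*, *Nr1d1*, *Nr1d2*, *Per3*, *Ciart* and *Tef* less that of *Bmal1*, *Npas2*, *Clock* and *Nfil3*, and was 0.85, -0.37 and -2.0 in the ABpIF/F mice. Collection times were not given in the sources used here, so the time of day cannot be told apart from the ABpIF/F genotype. Outside the ABpIF/F group only malpa387 had a score in the ABpIF/F range. Fits with this score as a covariate therefore lean largely on malpa387 where ABpIF/F mice are compared.

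In livers of ABpIF/+ mice, 6 of the 8 genes differed from Ctrl, as compared to 25.5% of all genes tested and 47.3% of the genes that averaged at least 1 CPM. *Rabggtb*, *Rce1* and *Fnta* rose (12.7% of all genes did), while *Fntb*, *Pggt1b* and *Rabggta* fell (12.7% of all genes). In ABpIF/F mice only *Icmt* and *Rabggta* differed from Ctrl, at a background of 17.1% of all genes and 31.8% of those that averaged at least 1 CPM. Both fell (7.36% of all genes), and 0 of the 8 rose (9.7%). Between ABpIF/F and ABpIF/+ mice 4 of the 8 differed, at a background of 18.2% and 32.4% on the same scales: *Icmt*, *Rabggtb* and *Fnta* were lower in ABpIF/F mice (7.46% of all genes) and *Pggt1b* was higher (10.7%). The median log2 fold change of the 8 genes was -0.10 for ABpIF/+ vs Ctrl, -0.16 for ABpIF/F vs Ctrl and -0.43 for ABpIF/F vs ABpIF/+, and that of all genes was 0 in each comparison. Comparisons with a shared group use the same mice, so their values are not independent.

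**Figure D1:**
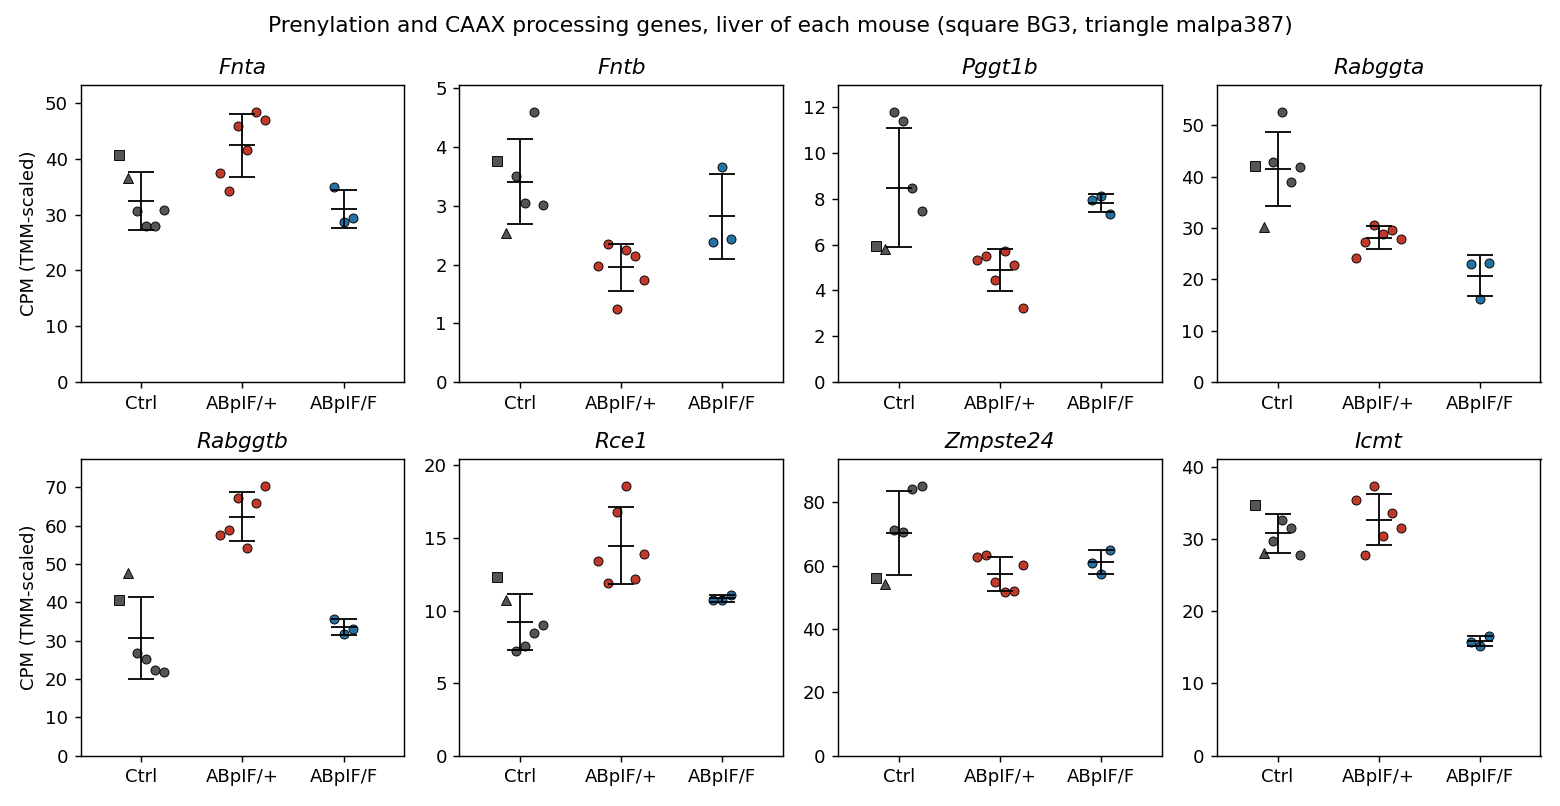
Each point is 1 mouse, the vertical axes give TMM-scaled CPM, and the line and bars give the mean and SD of the group (6 Ctrl, 6 ABpIF/+ and 3 ABpIF/F mice). *Icmt* was at 15.2 to 16.6 CPM in ABpIF/F mice and at 27.8 or more in every other mouse, and the Ctrl mice BG3 (square) and malpa387 (triangle) lay apart from the other Ctrl mice for 5 genes.

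With BG3 and malpa387 both left out, 7 of the 8 genes were called for ABpIF/+ vs Ctrl, 4 for ABpIF/F vs Ctrl and 5 for ABpIF/F vs ABpIF/+, and 26.2%, 17.9% and 20.9% of all genes. These 2 mice stand out by their values in these same genes, on the ABpIF/+ side. Leaving them out therefore tends to widen differences between ABpIF/+ and Ctrl, and calls gained this way are no separate support. With the strain label as a covariate, the comparisons of ABpIF/+ and of ABpIF/F with Ctrl both rest on BG3 as the only Ctrl mouse with the label of those groups. For ABpIF/+ vs Ctrl no member (0 of 8) was then called by edgeR, 2 of 8 had an unadjusted p under 0.05, and 11.4% of all genes were still called. The log2 fold changes of *Fntb* (-0.95 ± 0.38, against -0.80 ± 0.21 without the covariate) and *Rabggta* (-0.58 ± 0.22, against -0.56 ± 0.12) were no smaller, and their SE was wider. Those of *Rabggtb* (0.62 ± 0.30), *Rce1* (0.24 ± 0.25), *Fnta* (0.06 ± 0.20) and *Pggt1b* (-0.28 ± 0.33) were smaller than without it. DESeq2 without that covariate called 7 of the 8. The calls of *Icmt* and *Rabggta* in ABpIF/F vs Ctrl stayed with the covariate, at adjusted p = 0.000284 and 0.00618.

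The targeted gene *Icmt* (Entrez 57295) lies on the plus strand at chr4:152297214-152307126 of GRCm38. The floxed stretch is not given in the sources used here, and counts over the whole gene do not separate its exons. *Icmt* was at 27.8 CPM in the lowest, a median of 30.7 and 34.7 in the highest Ctrl mouse. In ABpIF/+ mice it was at 27.8, 32.6 and 37.4 CPM. The ABpIF/F mice BG183, BG38 and BG90 had 15.7, 15.2 and 16.6 CPM. The ABpIF/F mice lay below every other mouse, whereas Ctrl and ABpIF/+ mice overlapped. *Icmt* was 2.06-fold lower in ABpIF/F than in ABpIF/+ livers (log2 fold change -1.04 ± 0.13, adjusted p = 7.17e-06) and 1.94-fold lower than in Ctrl livers (-0.96 ± 0.13, adjusted p = 8.51e-06). The ABpIF/F livers thus had 0.48 times the ABpIF/+ level, with a 95% interval from 0.4 to 0.58. Between ABpIF/+ and Ctrl, which have the same *Icmt* genotype, the log2 fold change was 0.09 with a 95% interval from -0.12 to 0.29. The end of *Icmt* overlaps 109 bases of *Rnf207* on the opposite strand, and *Rnf207* had at most 4 counts in any mouse.

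*Rce1*, which encodes the CAAX protease that acts just before ICMT, was at 7.24 (lowest), 8.72 (median) and 12.3 (highest) CPM in Ctrl and at 11.9, 13.7 and 18.6 CPM in ABpIF/+ mice. In the 3 ABpIF/F mice it was at 10.7, 10.7 and 11.1 CPM, below every ABpIF/+ mouse. *Rce1* rose 1.58-fold in ABpIF/+ as compared to Ctrl livers (log2 fold change 0.66 ± 0.15, adjusted p = 0.0014), and only the Ctrl mouse BG3 reached the ABpIF/+ range. The difference between ABpIF/F and ABpIF/+ was -0.42 ± 0.18 and did not pass the test (adjusted p = 0.121). The 250 bases before its annotated start are shown because *Rce1* held more of the searched motifs there than any other of the 8 genes with a window (RefSeq, GRCm38.p6, minus strand, chr19:4625646-4625895), with capitals marking, from 5′ to 3′, CCAAT, the E-box CACGTG and the cyclic AMP response element TGACGTCA.
*Rce1*: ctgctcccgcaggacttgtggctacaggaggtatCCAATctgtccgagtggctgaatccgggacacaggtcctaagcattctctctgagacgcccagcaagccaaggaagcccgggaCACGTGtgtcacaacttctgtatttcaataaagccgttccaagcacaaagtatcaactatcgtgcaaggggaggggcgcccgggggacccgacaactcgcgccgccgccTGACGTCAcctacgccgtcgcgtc

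*Zmpste24* was at 54.2, 70.9 and 85.2 CPM (lowest, median and highest) in Ctrl and at 51.5, 57.5 and 63.4 CPM in ABpIF/+ mice. The ABpIF/F values were 60.9, 57.4 and 64.9 CPM, inside the Ctrl range. None of its comparisons was called, and the largest log2 difference was -0.29 ± 0.12 for ABpIF/+ vs Ctrl (adjusted p = 0.0814). That difference was called when either of BG3 and malpa387 was left out (-0.35 in each case, adjusted p = 0.0285 and 0.0249), and was -0.44 (adjusted p = 0.00205) without both. With all mice kept, it was also called by DESeq2, and by edgeR with upper quartile scaling, gene filtering (filterByExpr) or the clock gene score. With the strain label as a covariate it was 0.03. For ABpIF/F vs Ctrl, leaving out both BG3 and malpa387 turned -0.20 (adjusted p = 0.463) into -0.35 (adjusted p = 0.0488).

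**Figure D2:**
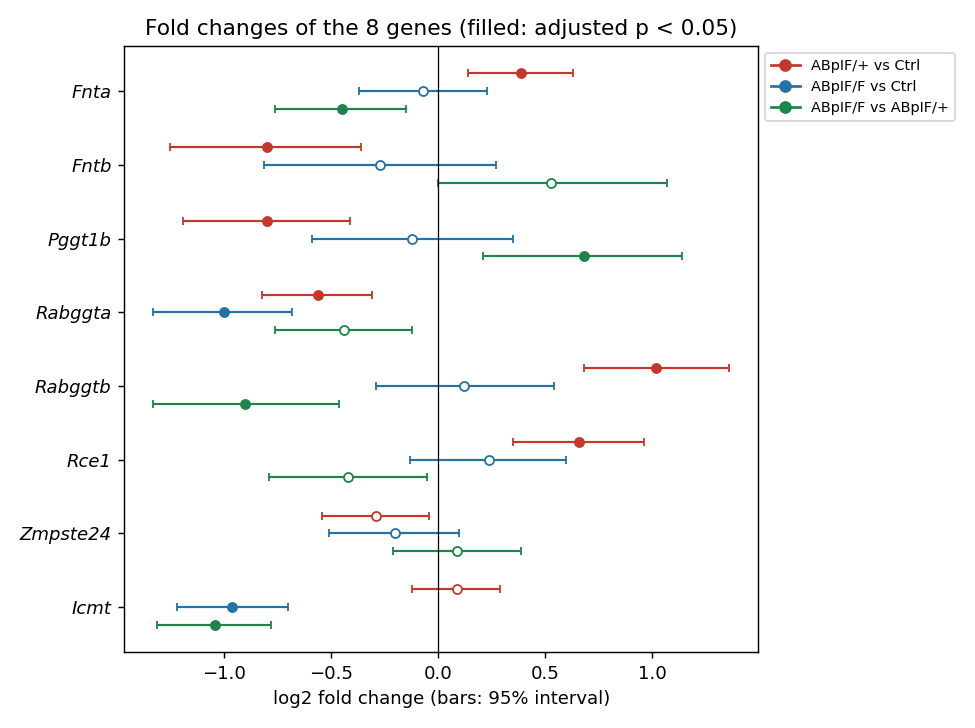
The horizontal axis gives the log2 fold change of each gene in the 3 comparisons, with 95% intervals as bars and filled points for an adjusted p under 0.05. *Icmt* lies at -0.96 and -1.04 in the comparisons with ABpIF/F and at 0.09 in ABpIF/+ vs Ctrl, while *Rabggtb* lies at 1.02 in ABpIF/+ vs Ctrl and at -0.90 in ABpIF/F vs ABpIF/+.

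The 2 subunit genes of GGTase II went in opposite directions in ABpIF/+ livers. *Rabggtb*, which encodes the β subunit, was at 21.8, 26.1 and 47.6 CPM (lowest, median and highest) in Ctrl and at 54.1, 62.4 and 70.4 CPM in ABpIF/+ mice. The 3 ABpIF/F mice had 35.7, 31.7 and 33.1 CPM. All 6 ABpIF/+ mice lay above all other mice. *Rabggtb* rose 2.03-fold as compared to Ctrl (log2 fold change 1.02 ± 0.16, adjusted p = 6.31e-05) and was 1.86-fold lower in ABpIF/F than in ABpIF/+ livers (-0.90 ± 0.21, adjusted p = 0.00393). At an adjusted p under 0.01 with a 2-fold change, *Rabggtb* alone of the 8 genes was called in ABpIF/+ vs Ctrl (10% of all genes), *Rabggta* alone in ABpIF/F vs Ctrl (6.93%) and *Icmt* alone in ABpIF/F vs ABpIF/+ (7.24%). For ABpIF/F vs Ctrl the log2 fold change was 0.12 ± 0.20 (adjusted p = 0.932), and it was 0.47 ± 0.12 (adjusted p = 0.00658) without BG3 and malpa387, which had 40.6 and 47.6 CPM.

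*Rabggta*, which encodes the α subunit, was at 30.2, 41.9 and 52.6 CPM (lowest, median and highest) in Ctrl and at 24.1, 28.4 and 30.5 CPM in ABpIF/+ mice. In ABpIF/F mice it was at 22.9, 16.1 and 23.1 CPM, below all other mice. Only malpa387, at 30.2 CPM, brought the Ctrl group into the ABpIF/+ range. *Rabggta* fell 1.48-fold in ABpIF/+ (log2 fold change -0.56 ± 0.12, adjusted p = 0.0012) and 2.00-fold in ABpIF/F livers (-1.0 ± 0.16, adjusted p = 6.97e-05) as compared to Ctrl. When the clock gene score was added to the model, a choice made after the data were seen, the second value became -0.68 ± 0.22 (adjusted p = 0.0796), while *Icmt* remained called at -0.88 ± 0.18 (adjusted p = 0.00542). Between ABpIF/F and ABpIF/+ the difference was -0.44 ± 0.15 (adjusted p = 0.0501), just outside the threshold. It was called without BG175 (-0.51, adjusted p = 0.034), and with the same value of -0.44 without BG3, malpa387 or malpa458 (adjusted p = 0.0469, 0.027 and 0.0387). With all mice of the compared groups kept, it was also called by DESeq2, with gene filtering (filterByExpr) and with only these groups in the fit. Without the ABpIF/F mouse BG38 it was -0.28 (adjusted p = 0.338), and with the clock gene score in the model -0.10 ± 0.23.

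The ratio of *Rabggtb* to *Rabggta* per kb of exon was 0.672, 0.841 and 2.2 (lowest, median and highest) in Ctrl, 2.62, 3.09 and 3.52 in ABpIF/+ mice and 2.17, 2.75 and 2.00 in the 3 ABpIF/F mice. All ABpIF/+ mice lay above all Ctrl mice. The highest Ctrl ratios were those of malpa387 at 2.2 and BG3 at 1.35, and the other 4 Ctrl mice were at 0.877 or less. The 250 bases before the annotated starts are printed to set the 2 genes of the enzyme side by side (RefSeq, GRCm38.p6, minus strand, chr3:153912967-153913216 for *Rabggtb* and chr14:55722264-55722513 for *Rabggta*), with capitals marking a match to the NRF1 motif (GCGC, any base, then TGCGC) on the opposite strand.
*Rabggtb*: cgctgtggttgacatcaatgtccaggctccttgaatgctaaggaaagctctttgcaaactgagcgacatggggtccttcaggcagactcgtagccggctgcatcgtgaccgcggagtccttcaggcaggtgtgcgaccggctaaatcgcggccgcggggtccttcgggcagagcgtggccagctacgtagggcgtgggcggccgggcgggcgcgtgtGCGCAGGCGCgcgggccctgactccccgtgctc
*Rabggta*: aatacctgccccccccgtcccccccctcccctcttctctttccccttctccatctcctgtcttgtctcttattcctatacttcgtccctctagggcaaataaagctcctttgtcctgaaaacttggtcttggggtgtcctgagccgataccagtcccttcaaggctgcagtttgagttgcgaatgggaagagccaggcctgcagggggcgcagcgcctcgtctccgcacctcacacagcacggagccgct

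**Figure D3:**
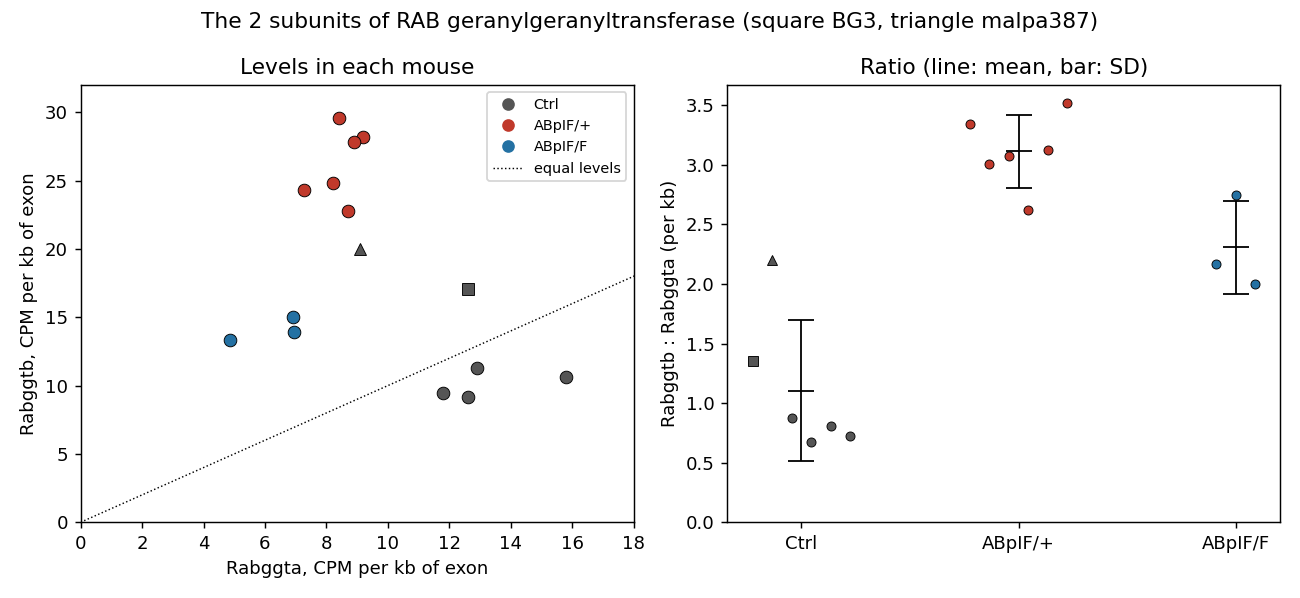
The left panel plots *Rabggtb* against *Rabggta* in CPM per kb of exon for each mouse, and the right panel plots their ratio with the mean and SD of 6 Ctrl, 6 ABpIF/+ and 3 ABpIF/F mice. The ratio was 1.11 ± 0.589 in Ctrl, 3.11 ± 0.307 in ABpIF/+ and 2.31 ± 0.393 in ABpIF/F mice.

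A window before the start was listed for 6 of the 8 genes, and 8 motifs were searched in its 250 bases on both strands. They were the E-box CACGTG, the cyclic AMP response element TGACGTCA, the CCAAT box, the ETS motif CCGGAAGT, the NRF1 motif given above, the AP-1 motif TGANTCA, the sterol response element TCACNCCAC and the D-box TTATGTAA. Of all 32851 windows, 3.74% held the NRF1 motif, 6.02% the E-box, 1.55% the cyclic AMP response element and 33.8% a CCAAT box. The other 4 motifs were held by 2.88%, 6.75%, 1.05% and 0.819% of windows in the order given, and by none of the windows of the 8 genes. The NRF1 motif was found before *Rabggtb* and in the window of *Icmt*, which belongs to a start inside the gene span given above, and no matches overlapped in the windows printed.

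The α subunit that FTase and GGTase I share is encoded by *Fnta*. It was at 27.9, 30.7 and 40.7 CPM (lowest, median and highest) in Ctrl and at 34.2, 43.7 and 48.4 CPM in ABpIF/+ mice. In ABpIF/F mice it was at 34.9, 28.7 and 29.4 CPM. All 3 groups overlapped. *Fnta* rose 1.31-fold in ABpIF/+ as compared to Ctrl livers (log2 fold change 0.39 ± 0.12, adjusted p = 0.0169), and 0.53 ± 0.11 without BG3 and malpa387, the highest Ctrl mice. It was 1.37-fold lower in ABpIF/F than in ABpIF/+ livers (-0.45 ± 0.15, adjusted p = 0.034). This second call was lost when any of BG31, BG55, BG88, BG38 and BG90 was left out (adjusted p = 0.0646, 0.0714, 0.0591, 0.157 and 0.128). With all mice kept, it was also lost with upper quartile scaling (-0.38, adjusted p = 0.0786) and with the clock gene score (-0.58 ± 0.23, adjusted p = 0.15).

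In ABpIF/+ livers the partners of this subunit changed in the opposite direction. *Fntb*, the FTase β subunit gene, was at 2.53, 3.27 and 4.6 CPM (lowest, median and highest) in Ctrl and at 1.25, 2.07 and 2.35 CPM in ABpIF/+ mice. The 3 ABpIF/F mice had 2.38, 3.66 and 2.43 CPM. The ABpIF/+ mice lay below every other mouse, on counts of 31 to 69 per mouse. *Fntb* fell 1.75-fold in ABpIF/+ as compared to Ctrl livers (log2 fold change -0.80 ± 0.21, adjusted p = 0.00663). For ABpIF/F vs ABpIF/+ it differed by 0.53 ± 0.26, which did not pass the test (adjusted p = 0.18). It was 0.30 without BG38 and 0.92 ± 0.43 with the clock gene score in the model, and was not called in either fit (adjusted p = 0.703 and 0.237).

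*Pggt1b*, the GGTase I β subunit gene, was at 5.81, 7.98 and 11.8 CPM (lowest, median and highest) in Ctrl and at 3.21, 5.24 and 5.73 CPM in ABpIF/+ mice. In ABpIF/F mice it was at 7.96, 8.12 and 7.36 CPM, within the Ctrl range and above every ABpIF/+ mouse. BG3 and malpa387 had the lowest Ctrl values, at 5.95 and 5.81 CPM. *Pggt1b* fell 1.74-fold in ABpIF/+ as compared to Ctrl livers (log2 fold change -0.80 ± 0.19, adjusted p = 0.00246) and was 1.60-fold higher in ABpIF/F than in ABpIF/+ livers (0.68 ± 0.22, adjusted p = 0.0383). The second call was lost without any of BG175, BG31, BG55 and BG88 (adjusted p = 0.0597, 0.0689, 0.0551 and 0.0926) and without any of BG183, BG38 and BG90 (adjusted p = 0.0903, 0.123 and 0.0733).

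Groups did not overlap for 3 of the 8 genes in ABpIF/+ vs Ctrl, 2 in ABpIF/F vs Ctrl and 6 in ABpIF/F vs ABpIF/+, as compared to 15.9%, 17.1% and 18.7% of all genes and 31.3%, 31.6% and 34.2% of the genes that averaged at least 1 CPM. Per kb of exon, the order of levels in Ctrl livers was *Rabggtb* (12.9 ± 4.52 CPM per kb, SD, n = 6), *Rabggta* (12.5 ± 2.16), *Fnta* (10.9 ± 1.73), *Zmpste24* (9.83 ± 1.85), *Icmt* (5.82 ± 0.515), *Rce1* (4.42 ± 0.934), *Fntb* (0.915 ± 0.194) and *Pggt1b* (0.722 ± 0.222). The first 4 genes overlapped with each next gene among them, as did *Icmt* with *Rce1* and *Fntb* with *Pggt1b*. *Fnta* was 12.4 ± 3.48 times as high as *Fntb* in Ctrl, 28.9 ± 9.94 times in ABpIF/+ and 14.5 ± 4.33 times in ABpIF/F livers, and 16.9 ± 7.47, 36.2 ± 12.3 and 15.7 ± 1.7 times as high as *Pggt1b*. In ABpIF/+ livers *Rabggtb* stood alone at the top with 26.2 ± 2.68 CPM per kb, and *Fnta* (14.3 ± 1.91) came before *Rabggta* (8.45 ± 0.676) without overlap. In ABpIF/F livers *Icmt* (3.00 ± 0.135, n = 3) lay below *Rce1* (5.21 ± 0.115) without overlap, whereas these genes overlapped in the other groups.

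The lipid donors come from the mevalonate pathway. Of its 7 genes described here, 0 rose and 4 fell in ABpIF/+ as compared to Ctrl livers (median log2 fold change -0.71), and 0 rose and 3 fell in ABpIF/F as compared to Ctrl (-0.76). These are 57.1% and 42.9% of the list, as compared to 25.5% and 17.1% of all genes and 47.3% and 31.8% of the genes that averaged at least 1 CPM. In ABpIF/F as compared to ABpIF/+ livers edgeR called 0 of them (1 at an unadjusted p under 0.05), with a median of -0.12. *Idi1*, which encodes isopentenyl diphosphate isomerase, was at 66.6, 185 and 206 CPM (lowest, median and highest) in Ctrl and at 22.7, 43.4 and 53.4 CPM in ABpIF/+ mice, without overlap, and fell 4.09-fold (adjusted p = 5.32e-04). *Hmgcs1*, encoding the HMG-CoA synthase of the cytosol, fell 3.31-fold in ABpIF/+ livers (adjusted p = 0.00139) and *Pmvk*, a kinase of the pathway, 1.64-fold (adjusted p = 0.0267). *Pmvk* and *Fdps*, the gene of farnesyl diphosphate synthase, were 1.91-fold and 2.10-fold lower in ABpIF/F than in Ctrl livers (adjusted p = 0.0318 and 0.032), and *Idi1* was 2.76-fold lower (adjusted p = 0.0349). Without BG3 and malpa387, 2 genes of the list were called in ABpIF/+ vs Ctrl and 1 in ABpIF/F vs Ctrl, and edgeR with the clock gene score in the model called 0 in ABpIF/F vs Ctrl (1 at an unadjusted p under 0.05, median -0.27). With the strain label as a covariate, 1 rose and 0 fell in ABpIF/+ vs Ctrl, and edgeR called 0 in ABpIF/F vs Ctrl (4 at an unadjusted p under 0.05), while the medians were -0.98 and -1.02.

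The substrates of these enzymes showed changes in both directions. Of 21 genes of CAAX proteins, 4 rose and 5 fell in ABpIF/+ as compared to Ctrl, 4 rose and 5 fell in ABpIF/F as compared to Ctrl, and 1 rose and 4 fell in ABpIF/F as compared to ABpIF/+, with median log2 fold changes of -0.11, -0.05 and -0.06. The called shares were 42.9%, 42.9% and 23.8%, as compared to 25.5%, 17.1% and 18.2% of all genes and 47.3%, 31.8% and 32.4% of those that averaged at least 1 CPM. *Rhoc*, a small GTPase gene, rose 3.04-fold in ABpIF/+ and 3.96-fold in ABpIF/F livers as compared to Ctrl (adjusted p = 3.24e-08 and 3.39e-08). *Nap1l1*, a farnesylated histone chaperone, rose 2.97-fold in ABpIF/+ livers (adjusted p = 1.92e-09) and was 1.92-fold lower in ABpIF/F than in ABpIF/+ livers (adjusted p = 1.38e-04). In ABpIF/F livers *Nap1l1* was still 1.55-fold above Ctrl (adjusted p = 0.00272). *Dnaja1*, a farnesylated HSP40 co-chaperone, fell 2.01-fold and 2.54-fold in ABpIF/+ and ABpIF/F livers as compared to Ctrl (adjusted p = 1.28e-05 and 1.87e-05). The gene of the peroxisome import factor PEX19 fell 1.65-fold in ABpIF/+ and 1.86-fold in ABpIF/F livers as compared to Ctrl (*Pex19*, adjusted p = 1.53e-05 and 4.49e-05). *Dnaja2*, another HSP40 gene, and *Rheb*, a GTPase gene that acts on mTORC1, were 1.85-fold and 1.47-fold lower in ABpIF/F than in ABpIF/+ livers (adjusted p = 8.45e-05 and 0.00229).

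**Figure D4:**
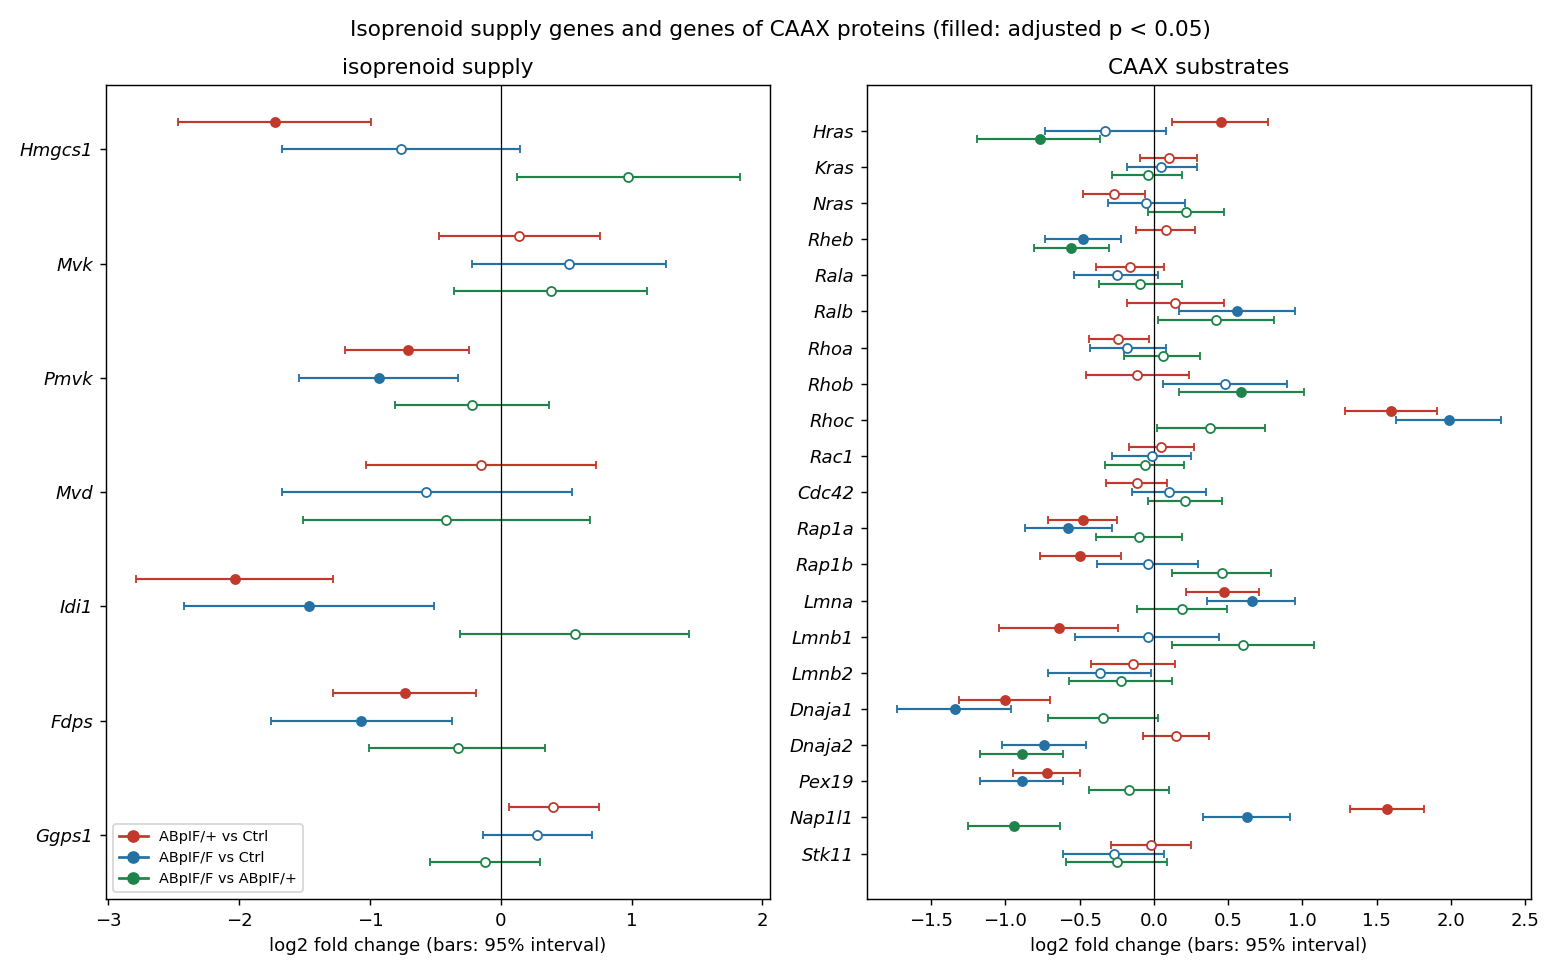
The horizontal axes give log2 fold changes with 95% intervals for 7 isoprenoid supply genes (left) and 21 genes of CAAX proteins (right), and filled points have an adjusted p under 0.05. All filled points on the left lie below 0, whereas *Rhoc* at 1.60 and 1.99 and *Dnaja1* at -1.0 and -1.34 bound the comparisons with Ctrl on the right.

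Of 13 genes of proteins that escort, extract or degrade prenylated proteins, 2 rose and 2 fell in ABpIF/+ vs Ctrl, 2 rose and 0 fell in ABpIF/F vs Ctrl, and 1 rose and 1 fell in ABpIF/F vs ABpIF/+ (median log2 fold changes 0.03, 0.11 and -0.05). The called shares of 30.8%, 15.4% and 15.4% lay below those of the genes that averaged at least 1 CPM (47.3%, 31.8% and 32.4%). *Arhgdia*, which encodes a GDP dissociation inhibitor of small GTPases, rose 1.63-fold in ABpIF/+ and 1.57-fold in ABpIF/F livers as compared to Ctrl (adjusted p = 4.26e-05 and 0.00118). *Rap1gds1*, which encodes a chaperone of small GTPases, fell 1.27-fold in ABpIF/+ livers (adjusted p = 0.00767), and *Gdi2*, a RAB GDP dissociation inhibitor gene, was 1.35-fold lower in ABpIF/F than in ABpIF/+ livers (adjusted p = 0.0243). *Arhgdib*, a related inhibitor gene known for its expression in blood cells, fell 1.88-fold in ABpIF/+ as compared to Ctrl (adjusted p = 0.00164). It was 3.02-fold higher in ABpIF/F than in ABpIF/+ livers (adjusted p = 6.74e-05). In the first comparison 5 of 7 macrophage, 7 of 7 stellate cell and fibroblast and 4 of 8 T and B lymphocyte markers also fell. In the second, 6, 7 and 5 of them rose in the same order. Of 5 neutrophil markers, 1 fell in the first and 4 rose in the second. Of 8 hepatocyte markers, 5 rose and 2 fell in the first, and 0 rose and 3 fell in the second. The part of these cells in the level of *Arhgdib* was not tested. *Arhgdib* also rose 1.61-fold in ABpIF/F as compared to Ctrl (adjusted p = 0.0498), where edgeR called 0 of 7 macrophage markers (0 at an unadjusted p under 0.05). In that comparison 5 of 5 neutrophil, 1 of 8 T and B lymphocyte and 2 of 7 stellate cell and fibroblast markers rose, and 0 fell. Without BG3 and malpa387, 1 of the 13 genes rose and 3 fell in ABpIF/F vs Ctrl.

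The last list holds 7 genes of the palmitoylation cycle, which adds a further lipid to some RAS proteins. Of these, 0 rose and 2 fell in each comparison with Ctrl (medians -0.21 and -0.23), and 1 rose and 2 fell in ABpIF/F vs ABpIF/+ (-0.12). The called shares were 28.6%, 28.6% and 42.9%, beside the same 47.3%, 31.8% and 32.4%. *Lypla1*, a depalmitoylating thioesterase gene, fell 2.02-fold in ABpIF/+ and 2.2-fold in ABpIF/F livers (adjusted p = 2.48e-06 and 3.02e-05). *Golga7*, a partner subunit gene of the palmitoyltransferase gene *Zdhhc9*, fell 1.23-fold in ABpIF/+ (adjusted p = 0.0304), and *Zdhhc9* fell 1.41-fold in ABpIF/F livers (adjusted p = 0.00976). Among the ABHD17 depalmitoylase genes, *Abhd17a* and *Abhd17b* were 1.42-fold and 1.41-fold lower and *Abhd17c* 1.42-fold higher in ABpIF/F than in ABpIF/+ livers (adjusted p = 0.0268, 0.0203 and 0.0188).

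Without BG3 and malpa387, the genes of CAAX proteins gave 4 rises and 5 falls in each comparison with Ctrl and 3 and 4 in ABpIF/F vs ABpIF/+, and the palmitoylation genes gave 1 rise and 2 falls in each comparison. With the clock gene score in the model, the share of all genes called fell to 5.55% in ABpIF/F vs Ctrl and 5.04% in ABpIF/F vs ABpIF/+. In ABpIF/F vs Ctrl edgeR then called 3 of 21 genes of CAAX proteins, 0 of 13 handling genes (1 at an unadjusted p under 0.05) and 0 of 7 palmitoylation genes (2 at an unadjusted p under 0.05). In ABpIF/F vs ABpIF/+ it called 2 of 21, 0 of 13 (3 at an unadjusted p under 0.05) and 0 of 7 (1 at an unadjusted p under 0.05), so the calls of the ABHD17 genes were lost. With the strain label in the model, 5 of 21, 1 of 13 and 1 of 7 were called in ABpIF/+ vs Ctrl (11.4% of all genes) and 7 of 21 (1 rose and 6 fell), 1 of 13 and 2 of 7 in ABpIF/F vs Ctrl (9.76% of all genes).

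Some genes near *Icmt* on chromosome 4 also differed. Of 9 nearby genes that averaged at least 1 CPM, 0 rose and 5 fell in ABpIF/F as compared to ABpIF/+ (background 10.7% and 7.46% of all genes, and 32.4% in either direction of those that averaged at least 1 CPM), with log2 fold changes between -1.41 and -0.02. *Acot7*, an acyl-CoA thioesterase gene 25.4 kb from *Icmt*, was 2.65-fold lower (-1.41 ± 0.21, adjusted p = 7.41e-05), and whether it fell by more than *Icmt* was not tested. *Rpl22*, a ribosomal protein gene 17.3 kb away on the other side, was 1.74-fold lower (adjusted p = 0.00361). Sharing of its reads with copies elsewhere in the genome was not tested. *A430005L14Rik*, *Zbtb48* and *Klhl21* were lower by -0.93, -0.64 and -0.54 on the log2 scale, and *Nol9*, *Lrrc47*, *Plekhg5* and *Dffb* were not called. As compared to Ctrl, 1 of the 9 rose (*Plekhg5*, 1.94-fold) and 5 fell in ABpIF/F livers, and 4 rose and 1 fell in ABpIF/+ livers. The background in either direction was 31.8% and 47.3% of the genes that averaged at least 1 CPM, in the same order. Of the 9 genes, *A430005L14Rik*, *Dffb* and *Lrrc47* lie 1650 to 1705 kb from *Icmt* and the others within 280 kb.

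**Figure D5:**
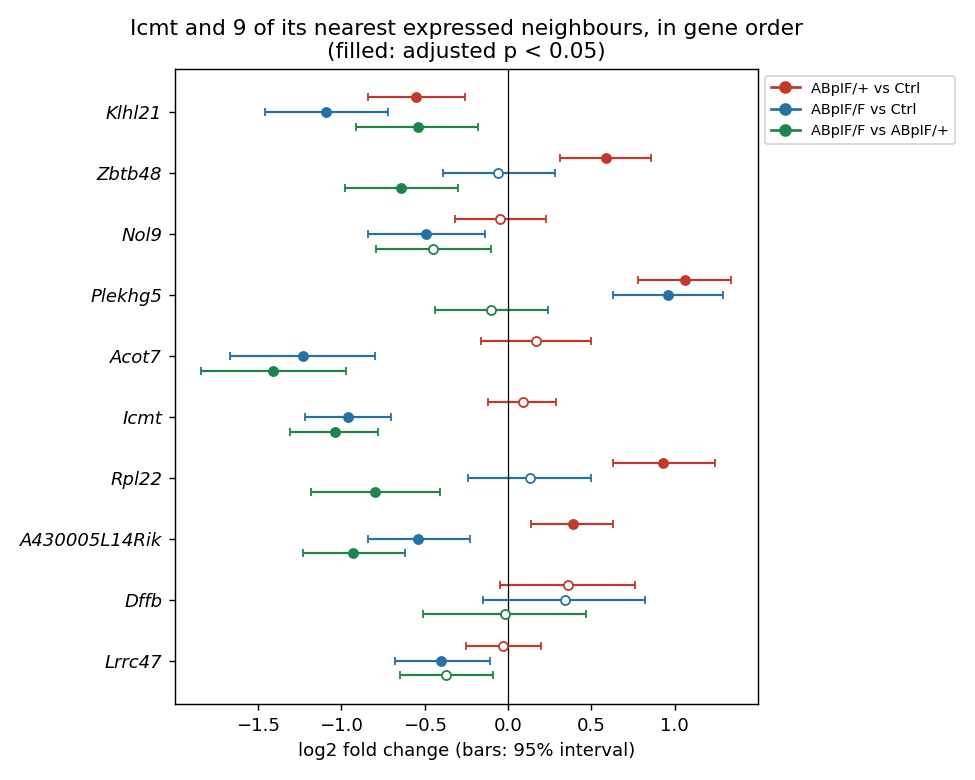
Rows are *Icmt* and 9 nearby expressed genes in their order on the chromosome, and the horizontal axis gives log2 fold changes with 95% intervals, filled where the adjusted p was under 0.05. In ABpIF/F vs ABpIF/+ all 9 neighbours lie between -1.41 and -0.02, and *Acot7* lies below *Icmt* at -1.04.

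The 5 genes whose log2 CPM followed that of *Icmt* most closely over the 15 mice, among 9567 genes averaging at least 5 CPM, were *Asl* (Pearson r = 0.953), *Ndufaf4* (0.947), *Idh3a* (0.935), *Dnaja2* (0.931) and *Cdv3* (0.929). Over the 12 Ctrl and ABpIF/+ mice r was 0.531, 0.706, 0.446, 0.474 and 0.65. *Asl*, which encodes argininosuccinate lyase of the urea cycle, had means of 635 CPM in Ctrl, 939 in ABpIF/+ and 152 in ABpIF/F livers.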

How the data were processed

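Stranded mRNA libraries from total RNA of frozen livers were sequenced from both ends. The authors trimmed the reads, aligned them to mm10 with HISAT2 (2.21 in the submitters' processing notes) and deposited raw counts per gene from featureCounts 2.0.8. The gene annotation and strand setting are not given in the sources used here. The deposited tables held identical counts for 15 mice, although 23 samples are listed and 8 mice are named by 2 of them. Columns with the authors' own fold changes and p-values were not used.

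The counts were fitted with edgeR 4.0.16 under R 4.3.3 (TMM scaling, all 27179 genes, robust quasi-likelihood F-test in its legacy form, 3 groups in 1 fit). P-values were adjusted by Benjamini-Hochberg over all genes. They weigh each difference between groups against the spread between mice, each counted once. The main fit was also run on simulated counts in which 200 genes that averaged at least 1 CPM were changed 2-fold in ABpIF/F mice alone. No result here rests on that run, which does not show how well smaller changes or changes in ABpIF/+ mice are found. RefSeq placed 93% of the genes. Exon lengths came from all GENCODE exons of a gene, merged and kept within its RefSeq range. The annotation that was counted is not given, so levels compared between genes, and their ratios, hold only for these lengths. How a ratio differs between groups does not depend on them. The 8 genes and the other lists were chosen with earlier results of these data known. Named genes were all 8 members, up to 3 called genes per list and comparison with the smallest adjusted p, the 5 nearest neighbours of *Icmt* on each side, and the 5 genes most correlated with it. Of the listed and neighbouring genes, 3 are not reported here. Alternatives were RLE and upper quartile scaling, DESeq2 1.42.0, filterByExpr, other edgeR settings, fits on the compared groups alone, an adjusted p under 0.01 with a 2-fold change, the strain label as covariate, the other table and leaving out each mouse. Leaving out BG3 with malpa387 and the clock gene score as covariate were added after seeing the data.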

Additional observations from a re-analysis of the deposited data

How the results depend on the processing

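*Icmt* was lower in ABpIF/F mice under every alternative run, by -1.13 to -0.88 against Ctrl and -1.09 to -0.96 against ABpIF/+ on the log2 scale. At an adjusted p under 0.01 with a 2-fold change, 1 of the 8 genes was called in each comparison, and *Icmt* in ABpIF/F vs Ctrl (-0.96) was not. Leaving out each mouse in turn gave 6 to 7 calls for ABpIF/+ vs Ctrl, 2 in every fit for ABpIF/F vs Ctrl and 2 to 5 for ABpIF/F vs ABpIF/+, with 2 calls without BG31, BG55, BG88, BG38 or BG90. For ABpIF/F vs Ctrl, 4 genes were called without BG3 and malpa387 and 1 when the clock gene score was in the model, where the share of all genes called was 5.55% in place of 17.1%. In ABpIF/F vs ABpIF/+ the fit with that score called 3 of the 8 genes and 5.04% of all genes. With the strain label as a covariate 0 were called for ABpIF/+ vs Ctrl, where *Icmt* changed from 0.09 to -0.09 and *Zmpste24* to 0.03. Uncalled differences of ABpIF/F vs Ctrl that changed sign were *Pggt1b* (0.39), *Rabggtb* (-0.28), *Rce1* (-0.18) and *Zmpste24* (0.12) with the strain label, and *Fntb* (0.10), *Pggt1b* (0.41), *Rabggtb* (-0.44) and *Zmpste24* (0.11) with the clock gene score. *Fnta* became 0.01 without BG3 (leaving out any 1 mouse gave -0.16 to 0.01) and 0.08 without BG3 and malpa387. The cause of these changes was not tested. Of 640 single-gene alternatives, 581 kept direction and call, 30 lost a call, 17 gained one and 12 changed sign. This tally includes the other deposited table, whose identical counts could only give the same result. It also includes the stricter threshold, which reuses the main fit and could only keep or lose calls. No paired analysis was possible because the replicate numbers follow accession order and pair no mice. The low counts of *Fntb* limit its precision.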
